A study of Rattus norvegicus with 8 samples.

Results

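The lysosomal genes described here are 36 of 37 named genes for hydrolases, membrane proteins and proton pump subunits of the lysosome, out of 14217 genes with a probe set on the array. They were taken by gene symbol from the platform annotation, and where a gene had several probe sets the brightest, by mean log2 signal over the 8 arrays, stood for it. Npc1 had no probe set of its own symbol in that annotation and was skipped. All 36 also passed the filter on dim probe sets, which left 10446 genes in the test. By role they are 11 proteases, 8 glycosidases, 6 genes of lipid handling, 6 membrane proteins and 5 proton pump genes.

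The samples were labelled as extraocular muscles, the small muscles that turn the eyeball, from adult Sprague-Dawley rats of 200 ± 40 g initial body weight, with 1 Affymetrix array for each of 8 rats. The hyperthyroid group (arrays 1, 2, 3 and 5, n = 4) received T3, the active thyroid hormone, at 25 µg per 100 g body weight by intraperitoneal injection every 2 days for 6 weeks, with dissection 24 hours after the last dose. The control group (arrays 7, 8, 9 and 11, n = 4) was untreated, and the labels speak of no vehicle injection. The comparison addresses which transcripts of these muscles change when thyroid hormone is in excess for weeks. In bulk muscle RNA, fewer cells of a type and less RNA per cell cannot be told apart.

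The lysosome is the acidic compartment in which cells break down proteins, glycans and lipids delivered by endocytosis and autophagy. A proton pump, the vacuolar ATPase, acidifies it, soluble hydrolases do the cutting, and heavily glycosylated membrane proteins line it. In skeletal muscle the compartment clears glycogen and worn organelles, and inherited loss of the glucosidase Gaa leads to glycogen storage in muscle.

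Muscle transcripts were abundant on all 8 arrays, with summed intensities of 11 fibre markers between 142173 and 202174, but hyperthyroid 5 stood apart. On it Myh13, the extraocular myosin, was at 4.17, against 5430 to 9340 elsewhere, and the summed leukocyte markers were at 8512, against 2058 to 4640 elsewhere. Its near lack of Myh13 goes against its tissue label. The difference of each member (brightest probe set) is therefore given on all 8 arrays and without it, and a gene is called lower or higher by the sign of its log2 difference. Hyperthyroid 2 was low in glial transcripts (Mobp at 15.3, against at least 1249 on the other arrays except hyperthyroid 5, at 1.37). A sign of RNA length, the Gapdh ratio (3 prime over 5 prime probe set), was 3.91, 4.40 and 2.18 on hyperthyroid 1, 2 and 3, above the 1.67 to 1.97 of the controls, and 1.44 on hyperthyroid 5. Without hyperthyroid 5 every hyperthyroid ratio exceeded every control ratio, so in that fit the ratio and the treatment can hardly be told apart.

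The lysosomal genes did not move as a block. Ctsd, Laptm4a, Npc2 and Ppt1 were between 1.55-fold and 2.07-fold lower in hyperthyroid muscle with no overlap between groups, and most proton pump genes were lower by smaller amounts. Most glycosidases were higher in hyperthyroid muscle, with overlapping groups. On all 8 arrays 0 of the 36 genes passed an adjusted p of 0.05 in limma, as did 0% of the 10446 genes tested. At an unadjusted p under 0.05, 7 members were lower and 0 higher (19.4% and 0% of members), where 5.83% of all genes were lower and 6.34% higher. The groups did not overlap in 7 members, all lower in hyperthyroid arrays, beside 3.75% of all genes lower without overlap and 4.49% higher.

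**Figure D1:**
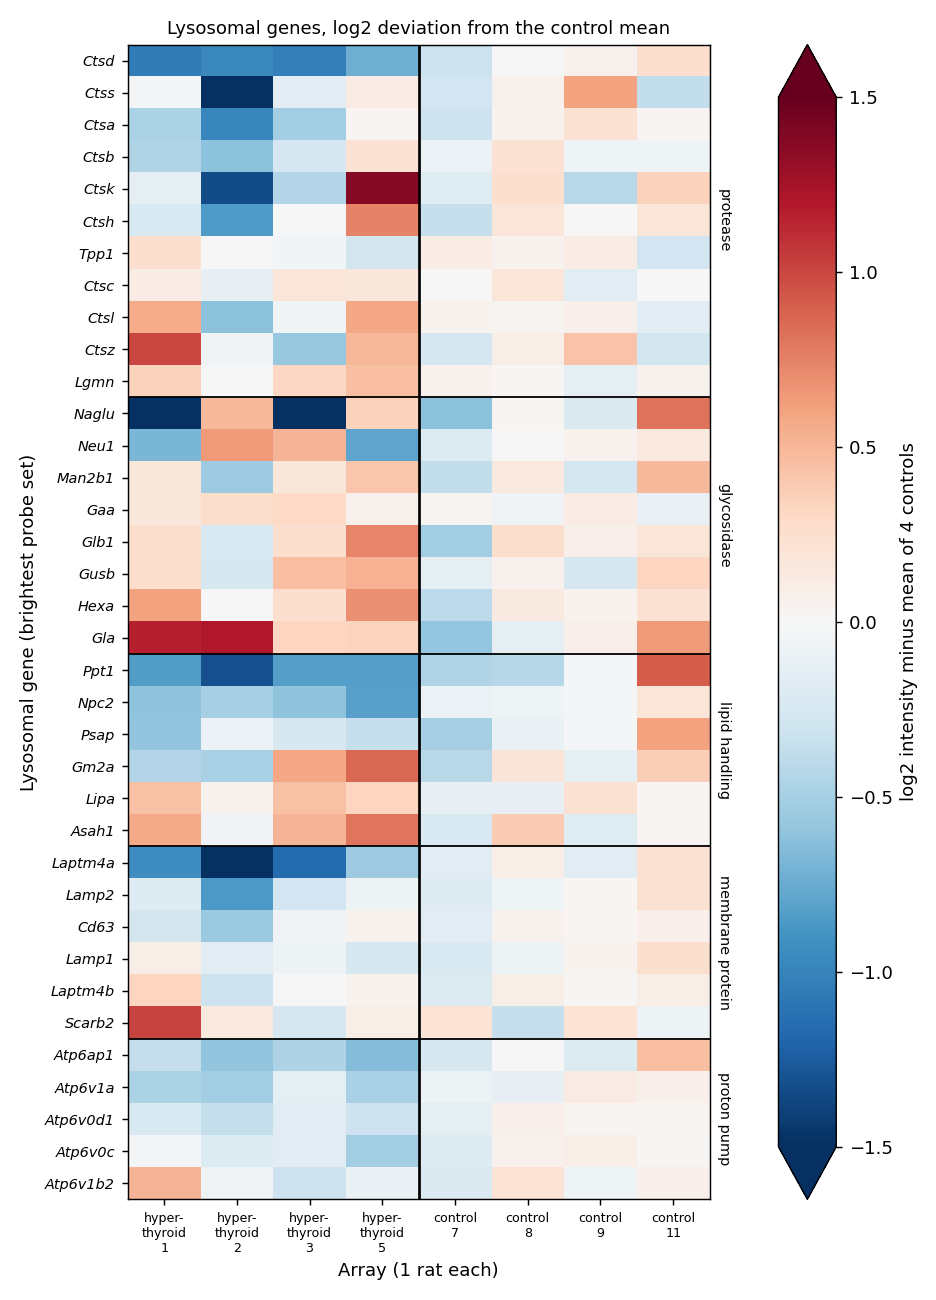
Each row is a lysosomal gene and each column an array; colour gives the log2 intensity minus the mean of the 4 control arrays, cut at 1.5 in either direction. Rows are grouped by class and ordered by the fitted difference: Ctsd and Laptm4a are low on all 4 hyperthyroid arrays, while Ctss stands out on hyperthyroid 2, and Ctsk on hyperthyroid 2 (low) and hyperthyroid 5 (high).

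The median log2 difference over the 36 members was -0.08, against 0.01 over all genes tested, and 20 were lower and 16 higher (48.8% of all genes were lower). With median centring of the arrays the median of all genes itself shifted to -0.11, that of the members to -0.20, and the split became 25 lower and 11 higher. Without hyperthyroid 5, 21 members were lower and 15 higher, with a median of -0.09, and 48.1% of all genes were lower. In that fit 10 members were lower and 0 higher at an unadjusted p under 0.05, where 8.24% of all genes were lower and 7.85% higher. The groups did not overlap for 10 lower members and 1 higher member, beside 7.23% and 8.29% of all genes. Without hyperthyroid 2, the median of the members was 0.0039 and 4 were higher at that p, beside 6 lower, where 6.02% of all genes were higher and 5.31% lower. With the Gapdh ratio fitted as a term on all 8 arrays, 6 were higher and 7 lower, where 6.71% of all genes were higher and 8.14% lower.

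**Figure D2:**
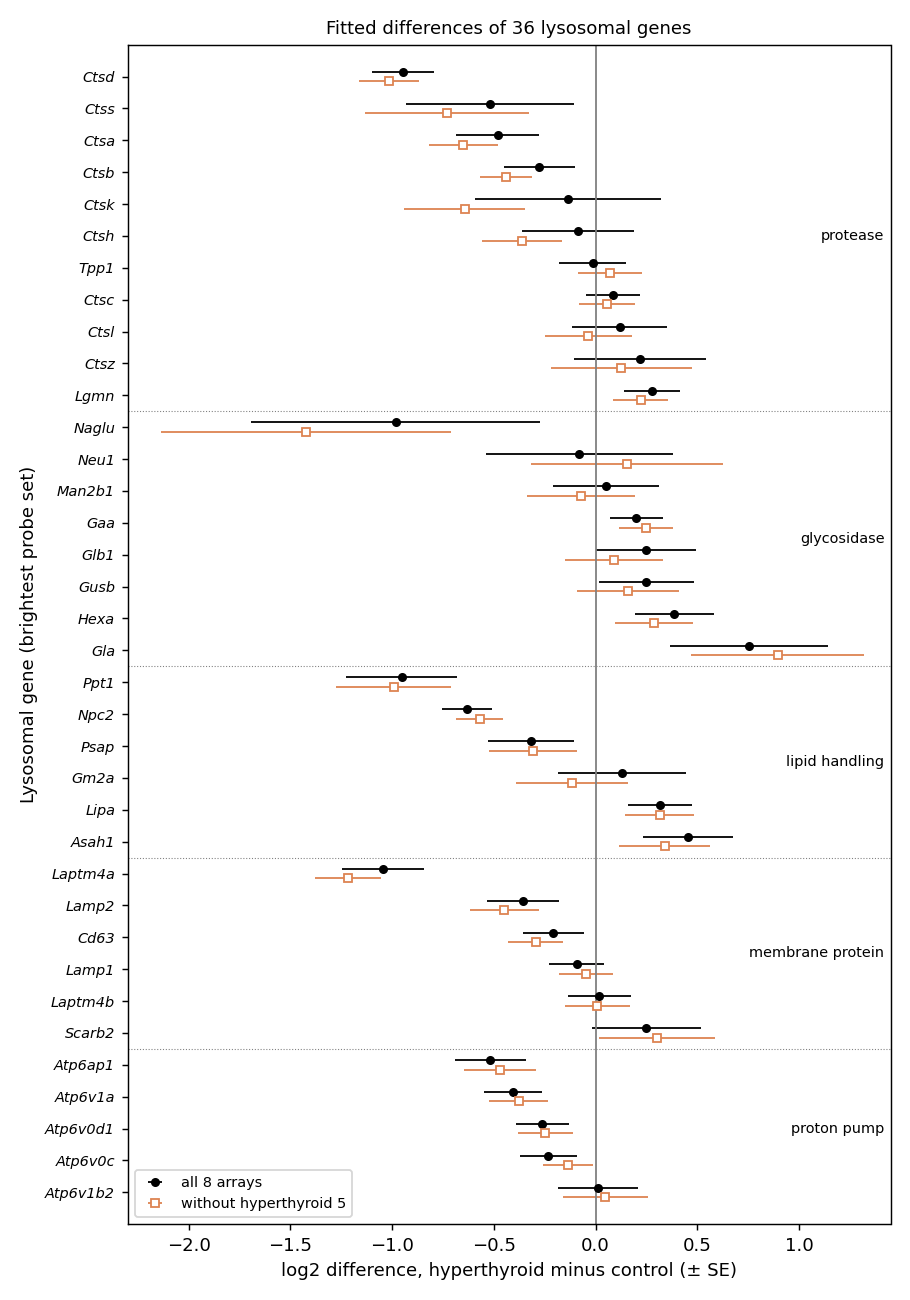
Points show the fitted log2 difference between hyperthyroid and control arrays for each of the 36 genes, with bars of 1 SE, on all 8 arrays (filled) and without hyperthyroid 5 (open squares). The values run from -1.05 for Laptm4a to 0.76 for Gla on all 8 arrays.

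Ctsd and Laptm4a were the 2 members past the adjusted threshold when hyperthyroid 5 was left out. That fit called 13 genes of 10446 (0.124%), of which 8 were lower (0.0766%). At an adjusted p of 0.1 Npc2 joined them, where 0.565% of all genes were lower. The annotated upstream sequences of both genes are shown because many lysosomal genes share a promoter element, the E-box CACGTG, through which the transcription factor TFEB acts. Lgmn is the member of smallest p among those with higher means for which a sequence was at hand, and Lamp1, added after its motif count was seen, has the most E-boxes. Each line gives the 250 bases before the annotated start in RefSeq's rat assembly GRCr8, 5′ to 3′ on the gene's strand, with E-boxes in capitals.
Ctsd, chr1:206968822-206969071, minus strand: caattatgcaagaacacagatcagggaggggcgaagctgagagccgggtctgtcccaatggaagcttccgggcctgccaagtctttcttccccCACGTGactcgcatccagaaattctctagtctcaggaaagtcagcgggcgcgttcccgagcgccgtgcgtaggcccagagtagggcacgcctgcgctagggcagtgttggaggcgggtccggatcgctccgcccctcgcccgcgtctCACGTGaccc
Laptm4a, chr6:37438253-37438502, plus strand: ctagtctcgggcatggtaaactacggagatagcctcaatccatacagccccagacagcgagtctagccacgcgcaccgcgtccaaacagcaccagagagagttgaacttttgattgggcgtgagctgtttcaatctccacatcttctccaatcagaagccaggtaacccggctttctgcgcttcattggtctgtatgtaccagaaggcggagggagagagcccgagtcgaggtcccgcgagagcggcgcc
Lgmn, chr6:127347329-127347578, minus strand: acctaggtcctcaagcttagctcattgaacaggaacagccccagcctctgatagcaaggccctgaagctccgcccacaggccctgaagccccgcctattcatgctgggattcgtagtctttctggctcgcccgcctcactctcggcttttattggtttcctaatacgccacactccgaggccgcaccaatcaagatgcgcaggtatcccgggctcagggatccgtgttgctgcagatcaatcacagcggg
Lamp1, chr16:83075064-83075313, minus strand: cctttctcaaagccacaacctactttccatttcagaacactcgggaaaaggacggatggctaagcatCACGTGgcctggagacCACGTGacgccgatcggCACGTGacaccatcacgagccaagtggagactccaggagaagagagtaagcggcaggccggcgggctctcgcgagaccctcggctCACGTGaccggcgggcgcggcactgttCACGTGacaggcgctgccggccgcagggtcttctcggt

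Ctsd has E-boxes whose first bases lie at positions -157 and -10, counted back from the base before the start as -1, Lamp1 has 5, and these letters are not in the windows of Laptm4a or Lgmn. Over windows of 300 bases (250 before and 50 after the start), searched on both strands, the E-box was in 6 of the 29 members with a RefSeq window (20.7%: Ctsd, Lamp1, Cd63, Gaa, Glb1 and Atp6v0d1) and in 6.42% of 33469 windows in the table. Those 33469 windows were not limited to genes on the array or to genes tested. The longer form TCACGTG, which contains the E-box, was in 5 of 29 (17.2%), against 3.20%. The letters AGGTCA, to which thyroid hormone receptors bind in suitable arrangements, were in 3 of 29 (10.3%: Ctss, Npc2 and Atp6v1a), against 16.2%. Member windows had a median GC content of 59.7%, against 51.7% for all windows. Of the E-box genes shown, the groups did not overlap for Ctsd and overlapped for Lamp1.

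Among the proteases, Ctsd separated the groups most clearly and the others varied mostly with single arrays. Ctsd encodes cathepsin D, the main aspartic protease of lysosomes. Hyperthyroid 1, 2, 3 and 5 had intensities of 490.2, 517, 496 and 608, whereas the 4 controls, in the order 7, 8, 9 and 11, had 811, 1017, 1060.5 and 1208. Every hyperthyroid value lay below every control. The means were 528 ± 54.6 and 1024 ± 164 (SD, n = 4 each), a log2 difference of -0.95 ± 0.15 (SE; adjusted p = 0.151 in limma). Without hyperthyroid 5 Ctsd fell by 1.02 ± 0.15 on the log2 scale (adjusted p = 0.0252), and hyperthyroid 1, 2 and 3 stood close together at 501 ± 13.9 (SD, n = 3). Ctsd has no further probe set of its own on the array.

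The call of Ctsd depended on single arrays and on the model. Without hyperthyroid 5, leaving out also hyperthyroid 1, hyperthyroid 2, control 8, control 9 or control 11 gave adjusted p of 0.137, 0.0651, 0.145, 0.123 and 0.0814, while the difference over all alternatives of that fit stayed between -1.20 and -0.93. It was also lost there without a variance trend (adjusted p = 0.315) and with the Gapdh ratio fitted (-0.94, adjusted p = 0.850). In that fit the ratio and the treatment can hardly be told apart. On all 8 arrays Ctsd passed with array weights (adjusted p = 0.0383).

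The cysteine protease cathepsin B and the carboxypeptidase cathepsin A were lower on hyperthyroid 1, 2 and 3. Ctsa stood at 614, 431, 599 and 866 on hyperthyroid 1, 2, 3 and 5, against 688, 884, 991 and 866 in controls, so that only hyperthyroid 5 reached the control range. The log2 difference was -0.48 ± 0.20 (adjusted p = 0.409 in limma), and -0.65 ± 0.17 without hyperthyroid 5 (adjusted p = 0.126). Ctsb ran at 1870.4, 1665, 2141 and 2966 in hyperthyroid arrays and 2403, 2963, 2452 and 2448 in controls. Here too hyperthyroid 5 was the exception and held the highest value of the 8. Its difference was -0.28 ± 0.17 on all 8 arrays and -0.44 ± 0.13 without hyperthyroid 5 (adjusted p = 0.556 and 0.156), and 0.0082 on all 8 once the Gapdh ratio was a term of the fit.

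Ctss, Ctsk and Ctsh had the widest spans of the proteases over the 8 arrays (6.06-fold, 6.63-fold and 3.01-fold), with Ctsz next at 2.98-fold. Ctss, the cathepsin of antigen-presenting cells, was at 155 on hyperthyroid 2 and between 478 and 941 on the other 7 arrays. Ctsk, the collagen-cleaving cathepsin of osteoclasts and fibroblasts, was at 80.2 on hyperthyroid 2 and 532 on hyperthyroid 5, against 151 to 258 elsewhere. Ctsh, an aminopeptidase, was at 829 and 2491 on those arrays, against 1174 to 1692 elsewhere. Ctss, Ctsk and Ctsh were all lowest on hyperthyroid 2, whereas Ctsz was lowest on hyperthyroid 3 (79.8) and highest on hyperthyroid 1 (238). On all 8 arrays Ctss, Ctsk and Ctsh differed by -0.52 ± 0.41, -0.14 ± 0.46 and -0.09 ± 0.28. Without hyperthyroid 5 the differences were -0.73 ± 0.40, -0.64 ± 0.30 and -0.36 ± 0.20 (adjusted p = 0.411, 0.332 and 0.405 in limma), with overlapping groups in both fits. Beside them, the 16 leukocyte markers summed to 3400.3, 2058, 3104 and 8512 on hyperthyroid 1, 2, 3 and 5. Controls had 3073 to 4640. The 10 fibroblast markers summed to 18142, 15141, 25238 and 48398 on hyperthyroid 1, 2, 3 and 5, and to 22010 to 40772 in controls. No marker of either list was at 0, the lowest being Itgam at 3.43 to 55.3. Their part in these values was not tested.

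The remaining proteases showed no separation. Ctsc, which activates granule proteases, was among the steadiest members, at 671 to 854 over all 8 arrays. Ctsl ran from 1881 to 4308 in hyperthyroid arrays and from 2557 to 3029 in controls, a wider spread under T3, and its difference changed sign from 0.12 ± 0.23 to -0.04 ± 0.21 without hyperthyroid 5. Lgmn, the asparaginyl endopeptidase that processes cathepsins, averaged 781 ± 97.6 under T3 and 641 ± 43.2 in controls (SD, n = 4 each), a difference of 0.28 ± 0.14 (adjusted p = 0.468 in limma), and 0.22 ± 0.14 without hyperthyroid 5. Ctsz, a carboxypeptidase, differed by 0.22 ± 0.33 and 0.13 ± 0.35 in these fits, Tpp1, a tripeptidyl peptidase, by -0.01 ± 0.16 and 0.07 ± 0.16, and Ctsc by 0.08 ± 0.13 and 0.06 ± 0.14.

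The glycosidases, which strip sugars from glycoproteins, glycolipids and glycogen, tended the other way, and none passed the test. Of 8 members 6 were higher and 2 lower in both fits, with a median log2 difference of 0.22 on all 8 arrays and 0.16 without hyperthyroid 5, and 0 were past an unadjusted p of 0.05 in either direction in either fit. Hexa, the alpha subunit of beta-hexosaminidase, had the smallest p of the class. It stood at 599, 398, 471 and 634 in hyperthyroid arrays and at 300.2, 433, 409 and 458 in controls. The groups overlapped through hyperthyroid 2, and the difference was 0.39 ± 0.19 (adjusted p = 0.472 in limma), and 0.29 ± 0.19 without hyperthyroid 5. Gaa, the acid glucosidase that degrades glycogen, was at 609, 651, 667 and 563 in hyperthyroid arrays, against 554, 522, 590.3 and 500.1. Without hyperthyroid 5 it was the 1 member whose hyperthyroid values all lay above the controls, at 0.25 ± 0.13 (adjusted p = 0.392), and on all 8 arrays it differed by 0.20 ± 0.13. A dimmer Gaa probe set went the other way, at -0.66 ± 0.40 on all 8 arrays.

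Gla, the alpha-galactosidase lost in Fabry disease, had the largest positive difference of the members (0.76 ± 0.39, adjusted p = 0.479 in limma, and 0.90 ± 0.43 without hyperthyroid 5), on low intensities of 52.0 to 95.8 in hyperthyroid and 27.8 to 65.0 in control arrays. Its second probe set gave 0.34 ± 0.32. Glb1 and Gusb, which cleave galactose and glucuronic acid, differed by 0.25 ± 0.25 and 0.25 ± 0.23, and without hyperthyroid 5 by 0.09 ± 0.24 and 0.16 ± 0.25. Naglu, which degrades heparan sulfate, ran from 10.5 to 91.6 in hyperthyroid arrays and from 42.6 to 115 in controls and was lower in both fits (-0.98 ± 0.71 and -1.42 ± 0.71). The other lower member was not the same in both. The sialidase Neu1, at 24.7 to 66.2 in hyperthyroid arrays and 37.0 to 47.0 in controls, differed by -0.08 ± 0.46 on all 8 arrays and by 0.15 ± 0.47 without hyperthyroid 5. The mannosidase Man2b1, at 123 to 251 over all arrays, went from 0.05 ± 0.26 to -0.07 ± 0.26. Gla, Naglu and Neu1 were the 3 members in the dimmest of 5 equal groups of tested genes by signal, and their SEs were among the largest.

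Lipid handling split into lower and higher genes. Npc2, the soluble cholesterol carrier of the lysosome, had intensities of 1238, 1330.2, 1233 and 1068 in hyperthyroid arrays and 1764, 1805, 1845 and 2124 in controls. The highest hyperthyroid value was well below the lowest control, and both groups were tight. The means were 1217 ± 109 and 1885 ± 163 (SD, n = 4 each), and the log2 difference was -0.63 ± 0.12 (adjusted p = 0.214 in limma). It was -0.57 ± 0.12 without hyperthyroid 5 (adjusted p = 0.0750), where hyperthyroid 5 had been the lowest of the 8. In that fit Npc2 passed in 2 of 19 alternatives, median centring (adjusted p = 0.0260) and a filter at the upper 40% (adjusted p = 0.0497). With that centring 17.2% of all genes were lower at an unadjusted p under 0.05, beside 8.24% without it. The adjusted p of Npc2 reached 0.986 with the Gapdh ratio fitted, which can hardly be told apart from the treatment without hyperthyroid 5.

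Ppt1, the thioesterase that removes palmitate from proteins, was at 514, 369.6, 518 and 516 in hyperthyroid arrays and at 671, 682, 903 and 1723 in controls. The groups did not overlap, but control 11 was far above the other controls. The difference was -0.95 ± 0.27 (adjusted p = 0.283 in limma), -0.99 ± 0.28 without hyperthyroid 5 (adjusted p = 0.152) and -0.65 without control 11. Psap, the precursor of the saposins that help degrade sphingolipids, was also highest on control 11, at 2981, against 1299 to 1930.2 on the other arrays, and differed by -0.32 ± 0.21, and by -0.31 ± 0.22 without hyperthyroid 5. On the other side, Asah1, the acid ceramidase, and Lipa, the acid lipase, differed by 0.46 ± 0.22 and 0.32 ± 0.16 (adjusted p = 0.461 and 0.470 in limma), and by 0.34 ± 0.22 and 0.31 ± 0.17 without hyperthyroid 5. A dimmer probe set of Asah1 gave -0.05 ± 0.28. Gm2a, the activator of ganglioside breakdown, ran from 198 to 503 in hyperthyroid arrays and from 207 to 358 in controls, and its difference changed sign from 0.13 ± 0.31 to -0.12 ± 0.28 without hyperthyroid 5.

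**Figure D3:**
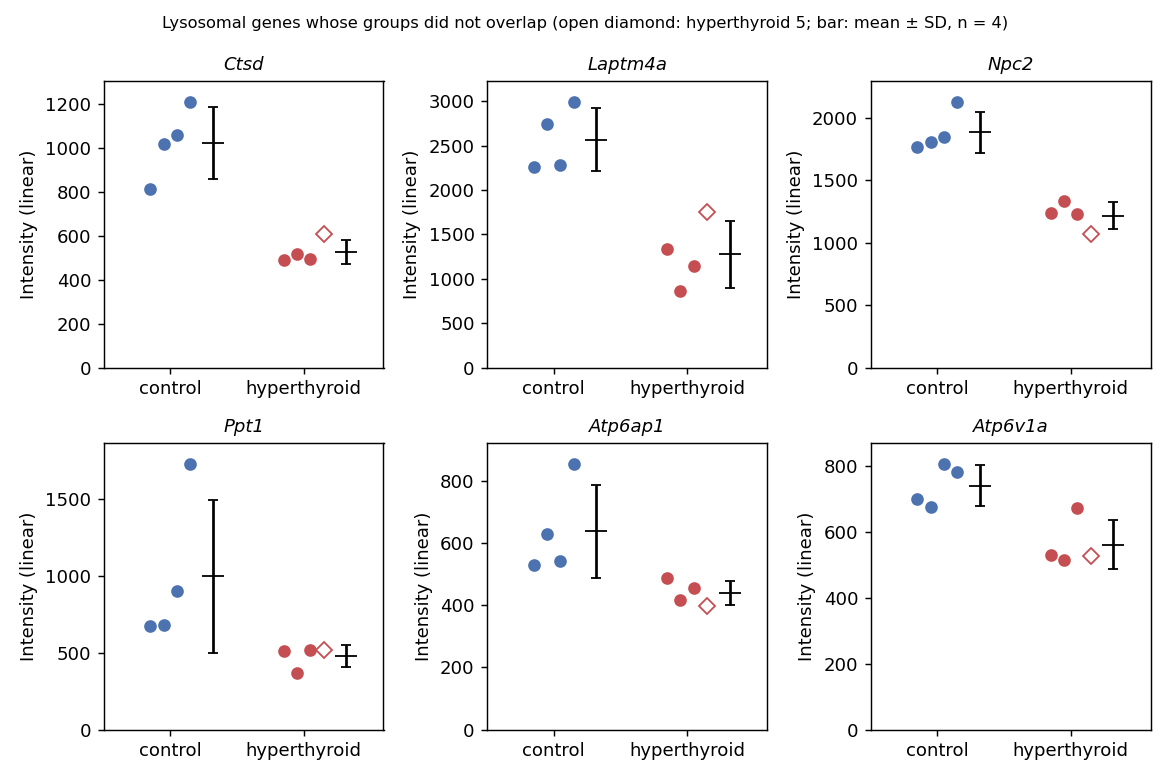
Linear intensity on each array for 6 of the 7 lysosomal genes whose groups did not overlap, with the mean ± SD of 4 arrays beside each group and hyperthyroid 5 as an open diamond. The lowest controls of Ctsd (811) and Npc2 (1764) stand clear of the highest hyperthyroid values (608 and 1330.2), and the control mean of Ppt1 is pulled up by control 11 at 1723.

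Laptm4a dominated the membrane proteins, and its relative Laptm4b did not follow. Laptm4a encodes a small multi-pass protein of late endosomes and lysosomes. Its intensity was 1339, 863, 1144 and 1753 on hyperthyroid 1, 2, 3 and 5, and 2263, 2741, 2277 and 2989 in controls. Each hyperthyroid array lay below all controls, with hyperthyroid 5 nearest to them. The means were 1275 ± 374 and 2567 ± 358 (SD, n = 4 each), a log2 difference of -1.05 ± 0.20 (adjusted p = 0.214 in limma). Without hyperthyroid 5 Laptm4a fell by 1.22 ± 0.16 on the log2 scale (adjusted p = 0.0198). Leaving out hyperthyroid 1, control 8, control 9 or control 11 as well gave adjusted p of 0.0682, 0.109, 0.0577 and 0.0596, whereas it still passed without hyperthyroid 2 (-1.04, adjusted p = 0.0382). The call was also lost there without a variance trend (adjusted p = 0.315) and with the Gapdh ratio fitted (-0.98, adjusted p = 0.894). That ratio and the treatment can hardly be told apart in this fit. Laptm4b had intensities of 668 to 1034 in hyperthyroid and 719 to 884 in control arrays, a difference of 0.02 ± 0.15, and of 0.0083 ± 0.16 without hyperthyroid 5.

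Of the abundant glycoproteins of the lysosomal membrane Lamp1 differed little, and Lamp2 and Cd63 were lower, by more without hyperthyroid 5. Lamp1 was at 2069 to 2588 in hyperthyroid and 2083 to 2878 in control arrays (-0.09 ± 0.14, and -0.05 ± 0.13 without hyperthyroid 5). Lamp2, which also serves chaperone-mediated autophagy, stood at 1375, 866, 1294 and 1489.9 in hyperthyroid arrays and 1376, 1509, 1602 and 1851 in controls. On all 8 arrays the difference was -0.36 ± 0.18. Without hyperthyroid 5 the groups just separated (-0.45 ± 0.17, adjusted p = 0.245 in limma), hyperthyroid 1 lying next to control 7, but a second Lamp2 probe set gave 0.0054 in that fit. Cd63, a tetraspanin of late endosomes, was at 2246, 1846, 2628 and 2825 in hyperthyroid arrays and 2426, 2852, 2768 and 2858 in controls. Its difference of -0.21 ± 0.15 became 0.0067 when the Gapdh ratio was fitted too and 0.0026 without hyperthyroid 1 and 2, and it was -0.30 ± 0.13 without hyperthyroid 5. Scarb2, the receptor that carries glucocerebrosidase to lysosomes, was at 331 on hyperthyroid 1 and between 129 and 189 elsewhere (0.25 ± 0.27, and 0.30 ± 0.28 without hyperthyroid 5).

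Of the 5 proton pump members 4 were lower in both fits, beside 48.8% of all genes on all 8 arrays. On all 8 arrays 3 were lower without overlap, beside 3.75% of all genes, and 0 passed the adjusted threshold in limma. Atp6ap1, an accessory protein of pump assembly, stood at 488, 417, 454 and 398 in hyperthyroid arrays and at 530.2, 628, 542 and 853 in controls. All hyperthyroid values were below the controls, and control 11 was again the highest. The difference was -0.52 ± 0.17 (adjusted p = 0.331 in limma), and -0.47 ± 0.18 without hyperthyroid 5. Atp6v1a, the catalytic subunit, was at 529, 514, 672 and 526, against 698, 675, 804 and 780.2 in controls. Hyperthyroid 3 came close to control 8, and the difference was -0.41 ± 0.14 (adjusted p = 0.332), and -0.38 ± 0.14 without hyperthyroid 5. A dimmer Atp6v1a probe set had overlapping groups (-0.66 ± 0.37, and -0.21 ± 0.19 without hyperthyroid 5). Atp6v0d1 was at 437 to 501 in hyperthyroid and 508 to 587 in control arrays (-0.26 ± 0.13, and -0.25 ± 0.13 without hyperthyroid 5).

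Atp6v0c, which forms the proton-conducting ring, differed by -0.23 ± 0.14, with overlapping groups, and by -0.14 ± 0.12 without hyperthyroid 5. Atp6v1b2 was the exception at 0.01 ± 0.20 (0.05 ± 0.21 without hyperthyroid 5), and its probe sets disagreed. The dimmer probe set had 131, 94.9, 135 and 155 in hyperthyroid arrays and 172, 189, 186 and 311 in controls, a difference of -0.71 ± 0.24 with no overlap (adjusted p = 0.331 in limma), and -0.81 ± 0.25 without hyperthyroid 5.

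**Figure D4:**
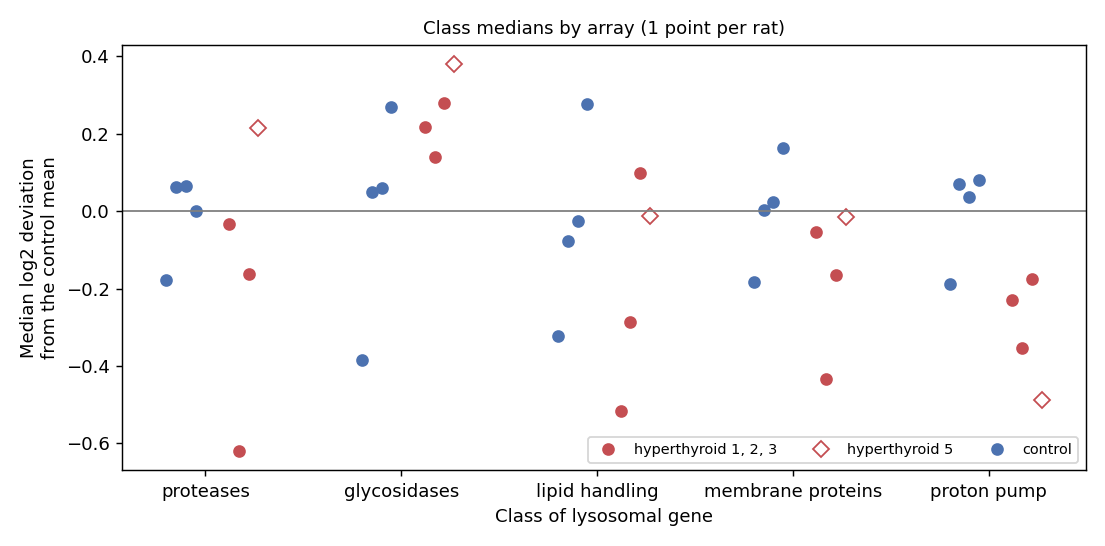
Each point is the median log2 deviation from the control mean over the genes of a class on 1 array, with control arrays in blue, hyperthyroid arrays in red and hyperthyroid 5 as an open diamond. Protease medians reach from -0.62 on hyperthyroid 2 to 0.21 on hyperthyroid 5, and pump medians from -0.49 to -0.18 in hyperthyroid arrays and from -0.19 (control 7) to 0.08 in controls, so these overlap.

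Further pump subunits, a list chosen by function, were also mostly lower. Of 13 genes 11 were lower and 2 higher, with a median log2 difference of -0.30. At an unadjusted p under 0.05, 4 were lower and 1 higher, where 5.83% of all genes were lower and 6.34% higher, and 0 passed the adjusted threshold in limma. Without hyperthyroid 5, 10 were lower and 3 higher, and 5 and 1 were past that p, where 8.24% and 7.85% of all genes were. Pooling members and list, a grouping made after the values were seen, 15 of 18 pump genes were lower on all 8 arrays and 14 without hyperthyroid 5. Of the ATP-splitting V1 domain 7 of 8 subunits were lower in both fits (medians -0.34 and -0.32), and of the V0 domain, which sits in the membrane, 6 of 8 and 5 of 8 (medians -0.17 and -0.11). The difference between the domains was not tested. Atp6v1e1, a stalk subunit of V1, stood at 1316, 1539.8, 1312 and 1286 in hyperthyroid arrays and at 1701, 1743, 1720.4 and 1722 in controls. The controls agreed within 16.8 (SD, n = 4) and all hyperthyroid values were lower (-0.34 ± 0.11, adjusted p = 0.331), and without hyperthyroid 5 the difference was -0.31 ± 0.11.

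Atp6v0e2 was at 360.3, 297, 311 and 207 in hyperthyroid arrays, against 433 to 468 in controls (-0.63 ± 0.18, adjusted p = 0.283 in limma, and -0.47 ± 0.14 without hyperthyroid 5). Tcirg1, the a3 subunit known from osteoclasts, was the outstanding gene of opposite sign. It stood at 154, 162, 161 and 123 in hyperthyroid arrays and at 95.3, 118, 56.9 and 74.0 in controls. No hyperthyroid value fell within the control range, and the difference was 0.85 ± 0.26 (adjusted p = 0.296), and 0.94 ± 0.28 without hyperthyroid 5.

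**Figure D5:**
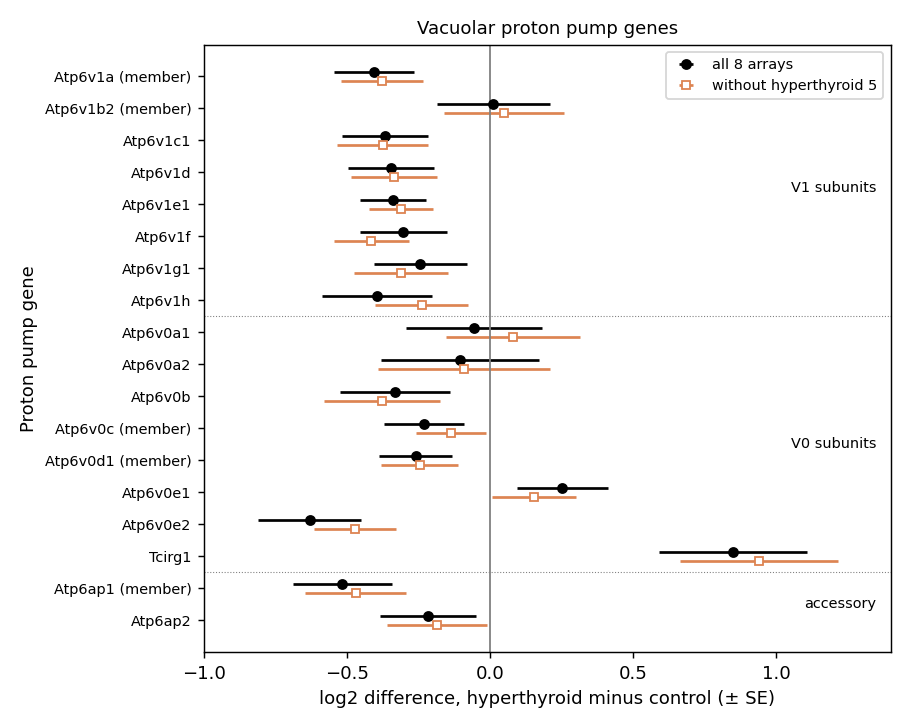
Fitted log2 difference between hyperthyroid and control arrays for 18 proton pump genes with bars of 1 SE, on all 8 arrays (filled) and without hyperthyroid 5 (open squares), grouped into V1, V0 and accessory genes. The V1 genes other than Atp6v1b2 lie between -0.41 and -0.24 on all 8 arrays, and Tcirg1 stands alone at 0.85.

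Other lysosomal genes, again from lists chosen by function, went in both directions, and no list was tested as a whole. Of 17 further hydrolases tested 10 were lower and 7 higher, and 0 were past an unadjusted p of 0.05. On all 8 arrays 2 of the 17 were lower without overlap (11.8%, beside 3.75% of all genes). Without hyperthyroid 5, 11 were lower and 6 higher, with 2 lower at that p (11.8%, where 8.24% of all genes were). The smallest p belonged to Manba, a mannosidase, at -0.77 ± 0.36 and to Aga, which cleaves asparagine-linked sugars, at 0.37 ± 0.17 (adjusted p = 0.438 and 0.440 in limma), and without hyperthyroid 5 they were at -0.89 ± 0.37 and 0.32 ± 0.18. Of 12 further membrane proteins 3 were lower and 9 higher in both fits. On all 8 arrays 1 was past that p, Hgsnat, an acetyltransferase of heparan sulfate breakdown (-0.42 ± 0.16, and -0.48 ± 0.16 without hyperthyroid 5). At that p 5.83% of all genes were lower on all 8 arrays. Without hyperthyroid 5, 1 of the list was lower and 2 higher at that p, where 8.24% and 7.85% of all genes were. The largest difference of the list in that fit was 1.59. In the same list Tspan3, a tetraspanin, differed by 0.36 ± 0.21, and by 0.57 ± 0.14 without hyperthyroid 5 (adjusted p = 0.108). Among 16 sorting genes and cathepsin inhibitors 7 were lower and 9 higher, and 8 and 8 without hyperthyroid 5. M6pr, the mannose 6-phosphate receptor that delivers hydrolases, was at -0.36 ± 0.15 (adjusted p = 0.414) and -0.35 ± 0.16 in the 2 fits, and Gnptab, which makes the sorting tag, at 0.32 ± 0.24 and 0.21 ± 0.24.

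Regulators and nutrient sensors were split, with 6 of 13 lower on all 8 arrays and 5 without hyperthyroid 5. Mtor, the kinase that senses nutrients on the lysosome, was at 422, 470.1, 262 and 450.4 in hyperthyroid arrays and 216, 284, 239.6 and 294 in controls, with hyperthyroid 3 inside the control range (0.61 ± 0.21, adjusted p = 0.332 in limma, and 0.54 ± 0.22 without hyperthyroid 5). Lamtor4, part of the scaffold that holds this kinase, was lower without overlap (-0.37 ± 0.15, adjusted p = 0.373, and -0.43 ± 0.15 without hyperthyroid 5). Tfeb, named here after its values were seen, ran from 181 to 293 in hyperthyroid and from 159 to 205 in control arrays (0.26 ± 0.20, and 0.34 ± 0.21 without hyperthyroid 5).

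The spread of the members differed between groups and arrays. Over the 36 genes the median SD of log2 intensity was 0.21 among controls and 0.35 among hyperthyroid arrays, and 0.29 without hyperthyroid 5, while over all genes tested it was 0.28 and 0.35. Hyperthyroid 2 held the lowest value of the 8 arrays for 15 of the 36 genes, and control 11 held the highest for 11 and hyperthyroid 5 for 10. Relative to controls, 19 members lay below the lowest control on hyperthyroid 2, and 15, 14 and 10 on hyperthyroid 1, 3 and 5. Above the highest control lay 12, 3, 9 and 12 members on hyperthyroid 1, 2, 3 and 5. The members were mostly bright, 21 of them in the brightest of those 5 groups. The median difference of these 21 was -0.28, beside -0.08 over all genes of that group. In the middle group 7 members had a median of 0.25, beside 0.04 over all genes. In the next brighter group 5 members had 0.13, beside -0.01. The 3 members of the dimmest group had -0.08, beside 0.09.

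Markers of other cells were set beside these values. Without hyperthyroid 5, 14 of 15 tested leukocyte markers and 8 of 10 fibroblast markers were lower (medians -0.52 and -0.53), with 0 past the adjusted threshold in limma. On all 8 arrays the counts were 9 and 9, with medians of -0.12 and -0.29. Their part in the lower lysosomal genes was not tested. Adipocyte markers summed to 1188 to 12251 in hyperthyroid and 2320 to 3833 in control arrays, with the highest value on hyperthyroid 5. All 7 endothelial markers were higher in hyperthyroid arrays in both fits (median 0.44 on all 8), with sums of 1978 to 2780, against 1780.0 to 2062 in controls. Glial markers summed to 394 to 13464, against 7537 to 16762, and gland epithelium markers to 324 to 1054, against 831 to 1500.4. All 7 glial and 4 of 5 tested gland markers were lower in both fits. Their medians were -2.33 and -1.43 on all 8 arrays, and -0.96 and -1.15 without hyperthyroid 5. Of 11 fibre markers 8 were lower on all 8 arrays and 6 without hyperthyroid 5 (medians -0.11 and -0.08). The part of these markers was not tested. Xist was high on hyperthyroid 1 and control 11 (367 and 351, against at most 44.5 elsewhere). The X-linked members are Gla, Lamp2 and Atp6ap1. With this difference as a block, the fitted differences on all 8 arrays cannot change, because Xist was high on 1 array of each group. There 7 members were lower at an unadjusted p under 0.05, as without the block, where 6.08% of all genes were lower. Without hyperthyroid 5, 11 members were lower at that p with the block and 10 without it (9.01% and 8.24% of all genes).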

How the data were processed

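Intensities of 8 arrays were analysed, 1 per rat, grouped by the sample titles. The deposited table holds a linear intensity for every probe set on each array. GCOS, the scanner maker's software, is listed in the submitters' processing notes without a version. Mean intensity after trimming 2% at each end was about 150.1 on every array, so the authors had scaled the values, and array medians ran from 47.8 to 58.5. Intensities were set to at least 1 (0.670% were lower) and taken to log2. Of 31042 probe sets that are not manufacturer controls, the upper 60% by mean log2 signal were tested (18625, from a mean signal of 28.2). The groups were compared in R 4.3.3 with limma 3.58.1 (two-sided, eBayes with its trend option). P-values were adjusted by Benjamini-Hochberg over all 18625, with a threshold of 0.05. Shares of all genes refer to the brightest probe set of each of 10446 genes, and p-values measure the spread between rats. The number of arrays limits the precision.

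The members and gene lists were chosen with earlier results of these data known, including those of Ctsd and Laptm4a, which are no independent support here. Members with an unadjusted p under 0.05 in either fit, and the member of smallest p per class, were described array by array. Of each other list up to 2 genes of smallest p were named. Other genes were added after their values were seen. The groups share no replicate number. Alternatives were other scalings, filters, offsets and variance models, covariates, gene means and leaving out arrays. The fits were tested on simulated data. Motifs were searched in RefSeq promoter windows.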

Additional observations from a re-analysis of the deposited data

Results flagged for a closer look

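In 6 of 72 sets of 4 arrays (36 genes in 2 groups), 1 array lay apart from the other 3 by a gap beyond Dixon's critical value, which chance gives in about 1 in 20 sets (3.6 of 72). Among controls these were Ctsb on control 8 (2963, the others at 2403 to 2452), Ctsl on control 11 (2557, the others at 2969.8 to 3029), Tpp1 on control 11 (355, the others at 450.5 to 470.0) and Lgmn on control 9 (577, the others at 654 to 669.6). Among hyperthyroid arrays they were Ppt1 on hyperthyroid 2 (369.6, the others at 514 to 518) and Atp6v1a on hyperthyroid 3 (672, the others at 514 to 529). For Ppt1 and Atp6v1a the outlying value still lay below every control.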

How the results depend on the processing

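No paired analysis was possible because the groups share no replicate number. On all 8 arrays the count of 0 members past the adjusted threshold in limma became 1 with array weights (Ctsd) and 1 without hyperthyroid 2 and 5 (Laptm4a; chosen after seeing the data), and ran from 0 to 2 when single arrays were left out. At an unadjusted p under 0.05 with groups not overlapping it was 6, all lower. The share of all genes past both criteria was not computed in either fit. Those lower without overlap were 3.75% of all genes on all 8 arrays and 7.23% without hyperthyroid 5. Without hyperthyroid 5 the count of 2 became 4 with median centring (Ctsb and Npc2 added). In that setting 66.0% of all genes were lower, and 17.2% of all genes were lower at an unadjusted p under 0.05. The share of all genes past the adjusted threshold with that centring was not computed. At an unadjusted p with groups not overlapping the count was 9. It was 0 without a variance trend or with the Gapdh ratio as a covariate, and ran from 0 to 2 without a further array. Leaving out hyperthyroid 1 and 2 as well left hyperthyroid 3 as the only hyperthyroid array, so no count is given. At an unadjusted p under 0.05, 6 members were lower and 1 higher without the trend, where 5.46% and 6.89% of all genes were. With the covariate 3 were lower and 1 higher at that p, where 2.97% and 1.79% of all genes were. Without hyperthyroid 5 this covariate and the treatment can hardly be told apart. The median over members ran from -0.20 to 0.0075 on all 8 arrays (-0.16 to 0.0039 without single arrays). Without hyperthyroid 5 the median over members moved from -0.09 to -0.27 with median centring. The median over all genes moved with it, from 0.02 to -0.16, so the members stayed 0.11 below all genes (-0.11 in both settings). Among the 11 members recomputed under every alternative the sign changed for Ctsb (0.0082) and Cd63 (0.0067) with the Gapdh ratio on all 8 arrays, Cd63 (0.0026) without hyperthyroid 1 and 2, and Cd63 (0.13) with the Gapdh ratio without hyperthyroid 5; the cause was not tested. The other 9 kept their direction in all alternatives run for both fits. The remaining 25 members were compared between the 2 fits only, and there Ctsl, Tpp1, Man2b1, Neu1 and Gm2a changed sign.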
